A study of Mus musculus with 4 samples.

Results

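Cells of the dermal papilla (DPCs) and of the dermal sheath (DSCs) were compared late in culture by setting the passage 9 DPC library against the passage 9 DSC library, which are 2 of the 4 samples of the series. Genes averaging at least 10 raw counts in these libraries were taken, which left 16989 of the 51826 genes in the deposited table. Both were cultures from the vibrissae (whiskers) of C57BL/6J mice transgenic for EGFP, which the labels give as wild type and the methods as 5 to 6 weeks old. They were grown in DMEM with fetal bovine serum. The other pair of libraries held the same cell types at passage 3, called low passage, against passage 9, called high passage. Each group was 1 library of bulk RNA, so no difference below has a replicate check and no p-value is given. Neither the number of animals behind a culture nor whether the high-passage cells descended from the low-passage cultures was stated.

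The dermal papilla is the cluster of mesenchymal cells enclosed by the hair bulb, and its secreted Wnt, BMP and FGF signals direct the epithelial cells that build the hair shaft. The dermal sheath is the connective tissue cup around the follicle, continuous with the papilla at its base. It holds contractile, smooth-muscle-like cells and cells that can replenish the papilla. In culture both grow as fibroblast-like cells and lose part of these features with passage.

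The passage 9 libraries held 34981284 counts for DPCs and 47604059 for DSCs, and the passage 3 libraries 35340038 and 38780425. Levels are given as read counts scaled to a common library size (CPM) after TMM scaling, and differences as log2 fold changes of DPCs over DSCs with a prior count of 2, so that a negative value means higher in DSCs. The 95% intervals are exact counting intervals, which cover counting error only and compare libraries, not conditions. A count of 0 allows up to 3 counts, or 0.0836 CPM in DPCs and 0.0658 CPM in DSCs at passage 9. Mitochondrial genes took 7.88% of the DPC counts and 5.65% of the DSC counts at passage 9, and the part of this in the differences was not tested. In bulk samples, fewer cells of a type and less RNA per cell cannot be told apart.

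The high-passage cell types were alike at most genes and far apart at a small set. Spearman's rho across the genes was 0.951, and 13513 genes (79.5%) lay within 2-fold. A difference of at least 4-fold was called. By this rule 475 genes, or 2.8% of those measured, were higher in DPCs, and 653, or 3.84%, were higher in DSCs. Together these were 6.64% of the genes. The shares of 2.8% and 3.84% are those against which the called members of each list below are to be read. The call held at the near end of the counting interval, or against 3 counts where a library had at most 3, for 320 and 497 of them, or 4.81% of all genes. At least 16-fold apart were 86 of the DPC-higher and 136 of the DSC-higher genes. The lower library was at 0 for 51 of the DPC-higher genes and for 136 of the DSC-higher genes. Of the 475, 350 (73.7%) were protein-coding, against 557 (85.3%) of the 653 and 80.3% of all measured. At the threshold lay Btn2a2 at 2.002 and Ap5s1 at 2.005, just inside, with Matk at 1.996 and Rslcan18 at 1.992 just outside. On the DSC side Zfpm2 (-2.001) and Jakmip3 (-2.001) were just inside, and C1qa (-1.998) and Fgf5 (-1.996) just outside.

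**Figure D1:**
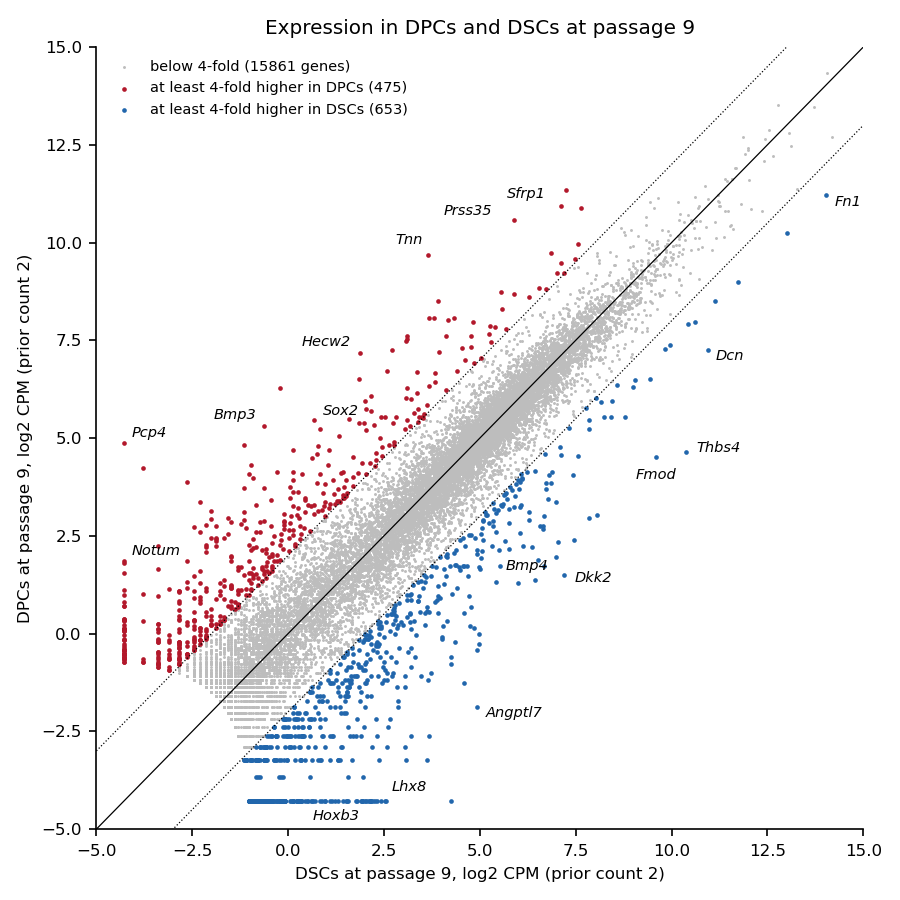
Level of each measured gene in DSCs (horizontal axis) and in DPCs (vertical axis) at passage 9, both in log2 CPM with a prior count of 2. The solid line marks equal levels and the dotted lines 4-fold. The 475 DPC-higher genes are red and the 653 DSC-higher genes blue, and the rows of points along the lower and left edges are genes at or near 0 counts in 1 library.

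Of the genes with at least 100 CPM in a passage 9 library, those far apart towards DPCs included Tnn, Hecw2, Prss35, Gpc3, Fgf2 and Igfbp3. Tnn encodes tenascin-N, a matrix glycoprotein (chromosome 1, 160085029 to 160153580, GRCm38). Its level was 827 CPM in DPCs and 12.5 CPM in DSCs at passage 9, and 30.1 and 14.2 CPM at passage 3. The log2 fold change at passage 9 was 6.04 (95% interval 5.92 to 6.17), so that the high-passage DPC library stood above all 3 others. Prss35, which encodes a secreted serine protease-like protein, had 1538 CPM in DPCs and 59.3 CPM in DSCs (4.70, 4.64 to 4.75). At passage 3 it had 11.1 and 4.67 CPM. Per transcript length, the level in high-passage DPCs was 418 FPKM for Prss35 and 131 FPKM for Tnn, against 407 FPKM for Sfrp1 and 152 FPKM for Gpc3.

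Gpc3 encodes glypican-3, a heparan sulfate proteoglycan of the cell surface that binds growth factors. It was at 18.0 CPM in DPCs and 1.85 CPM in DSCs at passage 3, and at 366 and 14.9 CPM at passage 9 (4.62, 4.51 to 4.74). Gpc3 was therefore higher in DPCs at both passages. Hecw2, a HECT-domain ubiquitin ligase, was at 145 CPM in DPCs and 3.599 CPM in DSCs at passage 9 (5.32, 5.11 to 5.57), against 10.5 and 5.801 CPM at passage 3. Igfbp3, which binds insulin-like growth factors, was at 194 and 8.45 CPM (4.51, 4.37 to 4.67), but at 22.9 and 19.9 CPM at passage 3. The low-passage cell types thus lay close together at Igfbp3.

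Further leading DPC genes were less abundant. Sema5b, a transmembrane semaphorin, was at 77.9 CPM in DPCs and 0.812 CPM in DSCs (6.498, 6.12 to 7.09). Bmp3, an atypical BMP family ligand that opposes signalling by other BMPs, was at 39.9 and 0.592 CPM (5.96, 5.53 to 6.68). Gper1, a membrane receptor for estrogen, was at 28.3 and 0.395 CPM (5.99, 5.50 to 6.92). These genes ranged between 0.264 and 3.97 CPM in the passage 3 libraries. Pcp4, a small calmodulin-binding protein, had 1046 counts in DPCs and 0 in DSCs, which makes it at least 443-fold higher, though its locus overlaps Igsf5. Notum, a secreted enzyme that removes the lipid from Wnt proteins, had 127 counts against 0 and was at least 53.8-fold higher. The muscarinic receptor gene Chrm2 had 103 counts against 0 and was at least 43.6-fold higher. Both overlap another annotated gene, and the use of strand in the counting was not given in the sources used here.

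Genes at or under 3 counts in DSCs, ranked by their ratio against 3 counts, made up the rest of the DPC leaders. Osr2, a zinc finger transcription factor of limb and palate development, had 167 counts in DPCs and 2 in DSCs. The raw log2 ratio was 6.73 (4.85 to 9.79). Ugt2b35, a glucuronosyltransferase, had 111 and 2 counts (6.14, 4.25 to 9.20), and Xlr3c 77 and 3 (5.03, 3.43 to 7.34). Hist2h2aa1, a histone H2A gene, had 673 counts in DPCs and 1 in DSCs, with 480 and 536 in the passage 3 libraries. It shares exons with Gm20634, which went the other way with 34 counts in DPCs and 1426 in DSCs at passage 9, and has a near-identical copy. Its reads could be assigned to any of these, and its value is uncertain.

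**Figure D2:**
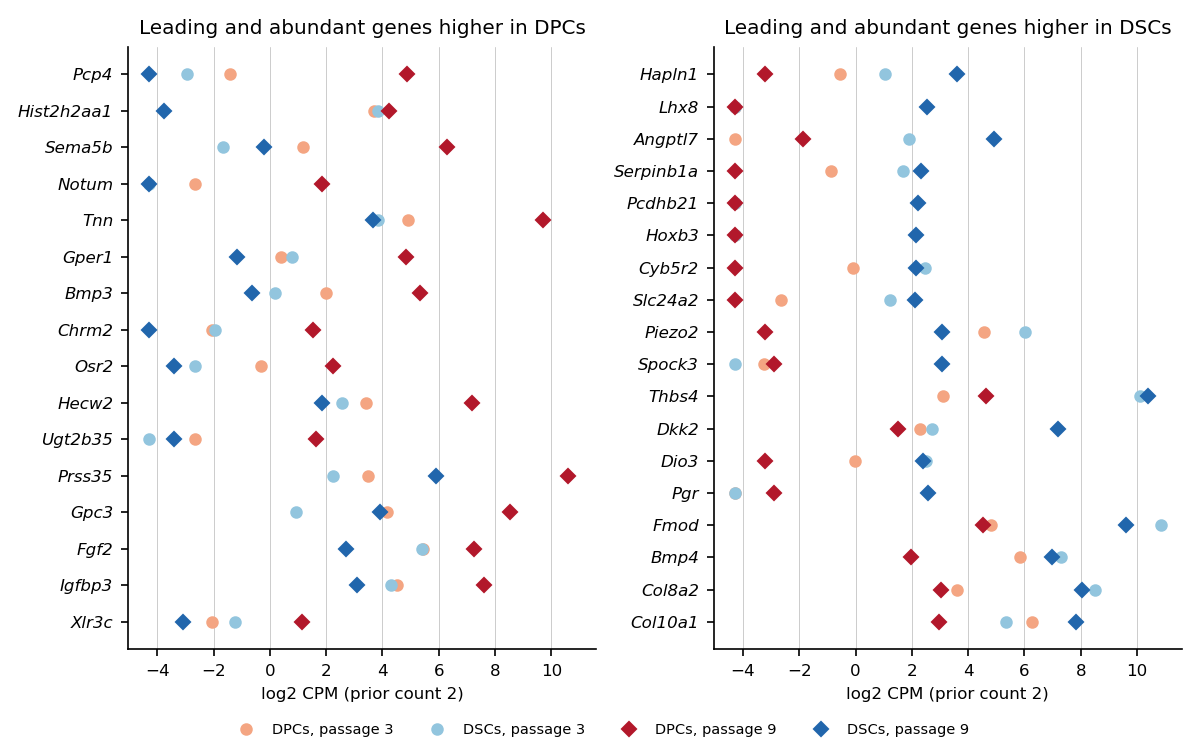
Level in the 4 libraries (log2 CPM, prior count 2) of the leading genes at passage 9 and of the leading abundant genes, higher in DPCs on the left and in DSCs on the right. Diamonds are passage 9 and circles passage 3. On the left the red diamonds of high-passage DPCs lie to the right of the other points, and on the right Thbs4, Fmod and Col8a2 have both DSC libraries high and both DPC libraries low.

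Towards DSCs, the genes far apart at this abundance included Thbs4, Dkk2, Fmod, Bmp4, Col8a2 and Col10a1. Thbs4, which encodes the matrix protein thrombospondin-4 (chromosome 13, 92751590 to 92794818), was at 1334 CPM in DSCs and 24.7 CPM in DPCs at passage 9. Low-passage DSCs and DPCs were at 1089 and 8.51 CPM. The log2 fold change was -5.75 (-5.85 to -5.66) at passage 9 and -6.99 at passage 3. Fmod, the collagen-binding proteoglycan fibromodulin, was at 775 CPM in DSCs and 23.0 CPM in DPCs (-5.07, -5.18 to -4.97), and at 1833 and 28.2 CPM at passage 3. Per length, Thbs4 reached 357 FPKM and Fmod 211 FPKM in high-passage DSCs. Col8a2, a chain of the short-chain type VIII collagen, was at 264 and 8.11 CPM (-5.02, -5.20 to -4.86), and at 364 and 12.2 CPM at passage 3. For these 3 genes both DSC libraries were far above both DPC libraries.

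Dkk2, Col10a1 and Bmp4 had a smaller or opposite difference at passage 3. Dkk2, a secreted modulator of the Wnt co-receptors Lrp5 and Lrp6, was at 147 CPM in DSCs and 2.76 CPM in DPCs (-5.71, -6.04 to -5.45). At passage 3 it was at 6.54 CPM in DSCs and 4.84 CPM in DPCs. Col10a1, the type X collagen of hypertrophic cartilage, was at 230 CPM in high-passage DSCs and 7.69 CPM in high-passage DPCs (-4.89, -5.08 to -4.73). At passage 3 it was higher in DPCs instead, at 77.8 against 40.2 CPM. Col10a1 overlaps Nt5dc1, so its counts may include reads of that gene. Bmp4 was at 126 and 3.82 CPM (-5.02, -5.295 to -4.795), and it was higher in DSCs at passage 3 as well, at 156 and 57.2 CPM. Its lowest library was high-passage DPCs.

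Of the less abundant DSC leaders, Angptl7, a secreted angiopoietin-like protein, had 1381 counts in DSCs and 8 in DPCs (-6.79, -8.30 to -6.10). Hapln1, which links hyaluronan to proteoglycans, had 554 and 2 counts, a raw log2 ratio of -7.77 (-10.82 to -5.91). Piezo2, a mechanically gated ion channel, had 380 and 2 counts at passage 9 (-7.23, -10.28 to -5.36). The passage 3 libraries held far more Piezo2, with 2474 counts in DSCs and 859 in DPCs. Spock3, a matrix proteoglycan, had 377 counts against 3, Pgr, the progesterone receptor gene, 268 against 3, and Dio3, which inactivates thyroid hormone, 235 against 2. Spock3 and Pgr had at most 2 counts in the passage 3 libraries.

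Of the DSC leaders with 0 counts in high-passage DPCs, Lhx8 was at 260 counts in DSCs. It is a LIM homeobox factor, was at least 68.2-fold higher, and had 0 counts in both passage 3 libraries. Serpinb1a, an intracellular protease inhibitor, had 224 counts (at least 58.8-fold higher), the calcium exchanger gene Slc24a2 197 (at least 51.7-fold) and the reductase gene Cyb5r2, which overlaps Ppfibp2, 201 (at least 52.8-fold). These 3 were also higher in DSCs at passage 3, by log2 fold changes of -2.56, -3.86 and -2.53. Pcdhb21, with 208 counts (at least 54.6-fold), overlaps Pcdhb22, and Hoxb3, with 202 counts (at least 53.0-fold), overlaps Hoxb3os, so both are uncertain.

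The labels were then set against marker genes. The papilla list held 28 genes, of which 20 were measured, and it did not separate the cell types in the direction of its name. Its median log2 fold change was -0.15, against -0.01 for all measured genes. Of its members 3 were called as DPC-higher and 5 as DSC-higher, against 2.8% and 3.84% of all genes. Sox2, a transcription factor of papillae, was at 41.5 CPM in DPCs and 3.91 CPM in DSCs at passage 9 (3.39, 3.19 to 3.64). The low-passage values were 45.6 and 7.09 CPM, so that both DPC libraries lay above both DSC libraries. Enpp2, which makes lysophosphatidic acid, was at 5.77 and 0.285 CPM (4.11, 3.53 to 5.27), and Notum is given above. Tbx18, a T-box factor of the papilla lineage, was 1.54 higher in DPCs at passage 9 and 2.94 at passage 3.

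The papilla genes higher in DSCs were Bmp4, Lef1, Rspo4, Ncam1 and Rspo2. Lef1, the nuclear partner of beta-catenin, had 2 counts in DPCs and 55 in DSCs at passage 9, a raw log2 ratio of -4.44 (-7.52 to -2.52). At passage 3 it had 508 counts in DPCs and 101 in DSCs. High-passage DPCs were thus the lowest of the 4 libraries at Lef1, and low-passage DPCs the highest. Ncam1, a neural cell adhesion molecule, was at 46.6 CPM in DPCs and 342 CPM in DSCs (-2.87, -2.95 to -2.80). It was higher in DSCs at passage 3 as well, at 310 against 98.97 CPM. Rspo2 was at 14.5 and 106 CPM (-2.86, -3.002 to -2.74), and at 12.01 and 44.1 CPM at passage 3. Crabp1, a retinoic acid binding protein of papillae, differed by -0.14 at passage 9 and by 3.93 at passage 3.

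Several defining papilla genes were at or near 0. Wif1, a secreted Wnt inhibitor, had 0 counts in both passage 9 libraries. Alpl, alkaline phosphatase, had 10 counts in DPCs and 6 in DSCs, Corin 4 and 10, Prom1 5 and 4, Sox18 6 and 4 and Sostdc1 0 and 2. Lepr, the leptin receptor, had 10 counts in DPCs and 0 in DSCs, below the minimum. DPCs and DSCs are therefore used here as the labels of the libraries. Of the other genes the study named for passage, Ranbp3l (-0.26), Crmp1 (0.59), Dach1 (-1.10), Nfatc2 (-1.91) and L1cam (0.15) were below 4-fold, and Cdh3, with 7 and 12 counts, was below the minimum.

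The contractile list, which stands for the smooth-muscle-like sheath cells, leaned towards DSCs at passage 9. Of 16 genes 15 were measured, 12 of them on the DSC side of 0, with a median of -1.18. No member was 4-fold higher in DPCs and 2 were in DSCs, against 2.8% and 3.84% of all genes. Myh11, smooth muscle myosin heavy chain, was at 69.3 CPM in DSCs and 4.68 CPM in DPCs (-3.87, -4.12 to -3.66). Mylk, myosin light chain kinase, was at 441 and 46.8 CPM (-3.23, -3.31 to -3.16). Acta2, smooth muscle actin and the usual sheath marker, was at 4329.7 CPM in DSCs and 1871 CPM in DPCs, a difference of -1.21 that did not reach 4-fold. At passage 3 the same list lay on the other side, with 12 of 15 members higher in DPCs and a median of 0.58. Acta2 was at 7123 CPM in DPCs and 5728 CPM in DSCs there, and Myh11 at 78.3 and 28.0 CPM. High-passage DPCs held the lowest level of Acta2, Myh11 and Mylk of the 4 libraries. Itga8 was higher in DPCs at both passages, by 0.92 and 2.07.

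General fibroblast genes were also on the DSC side. Of 10 measured, 9 were below 0, with a median of -2.23. In DSCs 5 were at least 4-fold higher and in DPCs none, against 3.84% and 2.8% of all genes. Fn1, fibronectin, was at 16785.5 CPM in DSCs and 2358 CPM in DPCs (-2.83, -2.84 to -2.82), with 19124 and 9317 CPM at passage 3. Col1a1, type I collagen, was at 8261 and 1218 CPM (-2.76, -2.78 to -2.75). Dcn, decorin, was at 1965 CPM in DSCs and 153 CPM in DPCs (-3.68, -3.72 to -3.64), against 86.8 and 116 CPM at passage 3. Lum, lumican, had 109 counts in DSCs and 0 in DPCs a difference of at least 28.6-fold. Pdgfra, a PDGF receptor of fibroblasts, was 1.61 higher in DPCs. The passage 3 median of the list was -0.23.

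Surface markers used for mesenchymal stem cells followed the same side. Of 10 genes, 4 were at least 4-fold higher in DSCs and 1 in DPCs (median -1.14), against 3.84% and 2.8% of all genes. At passage 3 the median was 0.02, with 5 genes above 0 and 5 below. Nt5e, the ectonucleotidase CD73, was at 63.3 CPM in DSCs and 2.40 CPM in DPCs (-4.70, -5.05 to -4.41). Cd34 was at 78.3 and 7.47 CPM (-3.38, -3.57 to -3.21). Thy1 (CD90) was at 687 and 91.4 CPM (-2.91, -2.96 to -2.86), and Vcam1 at 41.5 and 9.08 CPM (-2.18, -2.37 to -2.02). Alcam was higher in DPCs, by 2.13 (1.99 to 2.29). Of other markers examined in the study, Itgb1 (-0.31), Cd44 (-0.86) and Ly6a (-1.43) stayed below 4-fold, and the leukocyte marker Ptprc had 22 counts in DPCs and 18 in DSCs.

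Markers of other cells that a follicle culture could hold were then summed. The defining keratinocyte genes Krt5, Krt14, Krt15, Krt1, Cdh1 and Dsg3 had 0 counts in both libraries, as had the melanocyte genes Dct, Tyr and Tyrp1 and the Schwann cell genes Sox10, Foxd3 and Cdh19. The 12 keratinocyte genes summed to 10.6 CPM in DPCs and 60.6 CPM in DSCs, of which Dsp, desmoplakin, made up 5.13 and 50.6 CPM (-3.29, -3.53 to -3.09). The melanocyte list summed to 28.3 and 13.0 CPM, nearly all from Mitf (27.3 and 11.9 CPM), and the Schwann list to 6.35 and 10.9 CPM. The immune list was higher, at 66.5 and 97.8 CPM, most of it from Lyz2, the lysozyme of macrophages, at 54.7 and 78.3 CPM. Of the 9 immune rows measured, 1 was 4-fold apart, a second Itgam row with 0 counts in DPCs and 78 in DSCs that overlaps the main Itgam row, where the counts were 33 and 31. Endothelial genes did not lie on 1 side. Vwf had 194 counts in DPCs and 10 in DSCs and Erg 147 and 28, while Tek had 0 and 31 and the defining gene Cdh5 was at 0 in both. The endothelial list summed to 9.61 and 2.06 CPM.

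**Figure D3:**
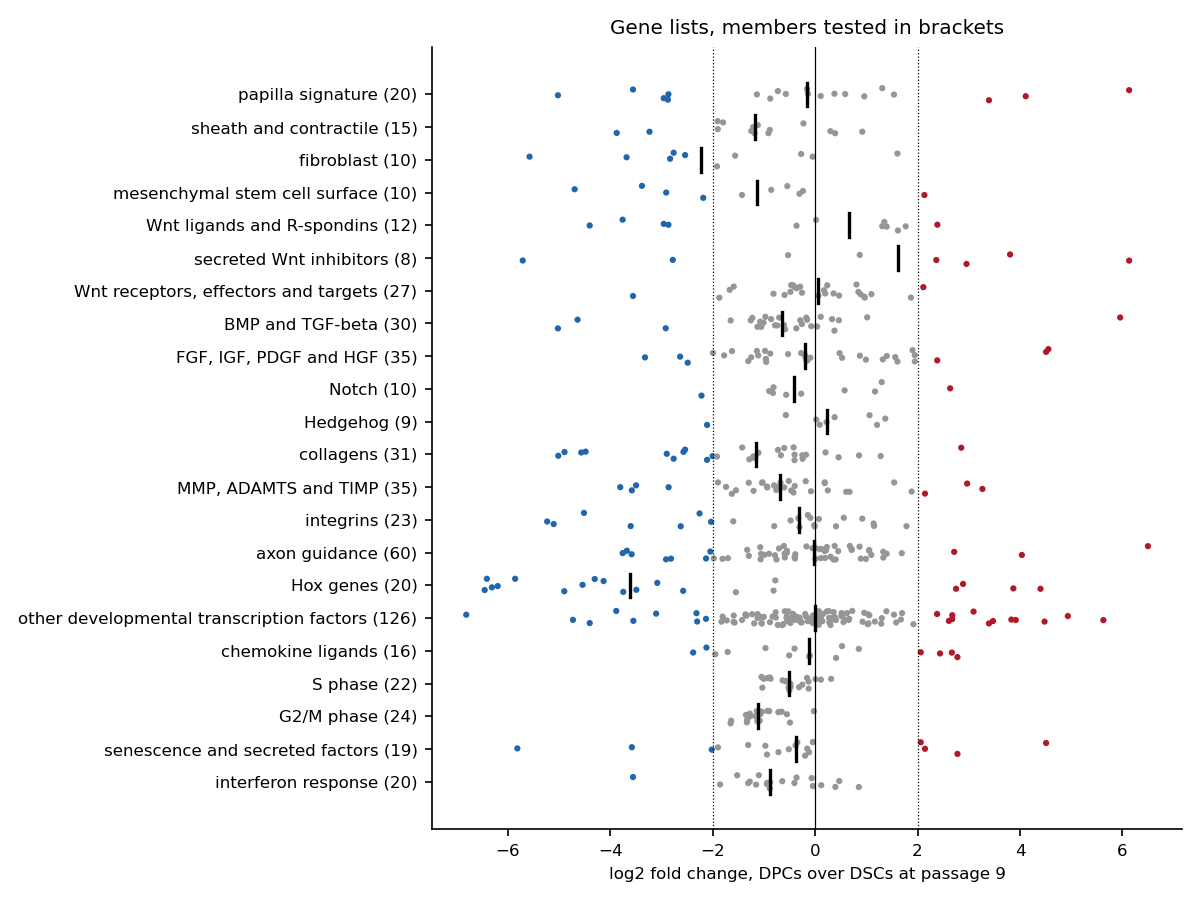
Log2 fold change of DPCs over DSCs at passage 9 (horizontal axis) for each measured member of 22 gene lists, with the number of members in brackets. Points are genes, red at least 4-fold higher in DPCs and blue in DSCs, vertical offsets within a row carry no meaning, and black bars are medians. The fibroblast and Hox medians lie left of -2, and the secreted Wnt inhibitors have the median farthest to the right.

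Wnt signalling genes are given by role. Wnt proteins bind Frizzled receptors and Lrp co-receptors to stabilise beta-catenin, R-spondins strengthen the response, and secreted inhibitors hold it back. Of 8 measured inhibitors, 4 were called as DPC-higher and 2 as DSC-higher, against 2.8% and 3.84% of all genes. The median was 1.62, but 0.87 both with no filter and at a minimum mean count of 100. Sfrp1, which binds Wnt proteins, was at 1947 CPM in DPCs and 139 CPM in DSCs (3.81, 3.77 to 3.84), against 18.0 and 8.94 CPM at passage 3. Frzb, a related protein, was at 10.6 and 1.32 CPM (2.96, 2.61 to 3.42), with 7.47 and 1.08 CPM at passage 3. Sfrp2 was low, with 32 and 6 counts (2.37, 1.48 to 4.31), and lay the other way at passage 3, with 0 counts in DPCs and 11 in DSCs. On the DSC side stood Dkk2, above, and Sfrp4 with 66 counts against 6 (-2.78, -4.61 to -1.92). The high-passage libraries thus differed in the level of several inhibitors, though DSCs held Sfrp1 (139 CPM) at a level near that of Dkk2 (147 CPM). Frzb was the measured inhibitor at least 4-fold higher in DPCs at both passages.

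Of 12 measured ligands and R-spondins, 1 was DPC-higher by the 4-fold rule and 4 were DSC-higher, against 2.8% and 3.84% of all genes. The median was 0.66. Wnt2b was at 8.25 CPM in DPCs and 1.54 CPM in DSCs (2.39, 2.04 to 2.82). Wnt4 had 98 counts in DSCs and 4 in DPCs (-3.76, -6.17 to -2.87), and Wnt7b 47 and 0, at least 12.3-fold higher in DSCs, with an overlapping gene. The R-spondins split, since Rspo2 and Rspo4 were higher in DSCs while Rspo1 (1.77) and Rspo3 (1.31) were higher in DPCs without reaching 4-fold. Wnt5a, a ligand of the beta-catenin-independent branch, differed by 1.35 in favour of DPCs, at 413 against 162 CPM.

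Of 27 measured Wnt receptors, effectors and targets, 1 was 4-fold higher in each direction, Nkd2 in DPCs (2.11, 2.08 to 2.15) and Lef1 in DSCs, against 2.8% and 3.84% of all genes. The median was 0.06. Nkd2, an inhibitor inside the cell, was at 770 CPM in DPCs and 178 CPM in DSCs at passage 9, and at 212 and 113 CPM at passage 3. Axin2, a common target of beta-catenin, was at 6.08 CPM in DPCs and 1.62 CPM in DSCs (1.87, 1.52 to 2.30), below 4-fold. At passage 3 it was the other way round, with 4 counts in DPCs and 34 in DSCs. Lgr6, an R-spondin receptor, was at 14.0 and 44.5 CPM (-1.67).

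Of 30 measured BMP and TGF-beta genes, 1 was DPC-higher and 3 were DSC-higher, against 2.8% and 3.84% of all genes, with a median of -0.66. The ligands Bmp3 (higher in DPCs) and Bmp4 (higher in DSCs) are given above. Bmp2 had 140 counts in DSCs and 13 in DPCs (-2.92, -4.03 to -2.26). Chrdl1, a secreted BMP antagonist, was at 91.5 CPM in DSCs and 3.62 CPM in DPCs at passage 9 (-4.64, -4.92 to -4.41), and at 134 and 3.64 CPM at passage 3, which separated the cell types at both passages. The BMP response genes Id1 (-1.07) and Id3 (-1.23) were on the DSC side, and Id2 was at 0.33.

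Growth factor genes of the FGF, IGF, PDGF and HGF families had 3 of 35 measured members higher in DPCs and 3 in DSCs (median -0.19). The shares of all genes were 2.8% and 3.84%. Fgf2 was at 153 CPM in DPCs and 6.47 CPM in DSCs (4.55, 4.40 to 4.74), with 43.2 and 41.9 CPM at passage 3. Fgf2 overlaps Nudt6 on the other strand. Fgf1 was at 11.9 and 2.24 CPM (2.38, 2.10 to 2.74). On the DSC side were Igfbp2, an IGF binding protein, at 2240.2 CPM against 360.3 CPM (-2.64, -2.66 to -2.61), Fgf9 (-2.49) and Fgf21, with 21 counts against 0. Igfbp2 was 4-fold higher in DSCs at passage 3 too (-2.045), and Igfbp3 and Fgf2 were at 0.20 and 0.04 there. The papilla growth factors Fgf7 (-1.14) and Fgf10 (-0.88) were on the DSC side below 4-fold.

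Of 10 Notch genes, the ligand Dll1 was higher in DPCs (225 against 44 counts, 2.64, 2.23 to 3.20) and the target Hey1 in DSCs (6 against 44 counts, -2.22, -4.05 to -1.29). Jag1, another ligand, differed by -0.82. Of 9 Hedgehog genes, Gli1, a transcriptional target of the pathway, was higher in DSCs, with 79 counts against 13 (-2.11, -3.23 to -1.40), while Ptch1, another target, was at 0.38. The ligand Shh had 0 counts in both. Dll1 was 4-fold higher in DPCs, and Gli1 in DSCs, at passage 3 as well (2.54 and -2.44).

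Hox genes separated the high-passage cell types by cluster. These transcription factors lie in 4 clusters and keep a record of the position of a cell along the body. Of 39 Hox genes, 20 were measured, of which 4 were called as DPC-higher and 13 as DSC-higher, against 2.8% and 3.84% of all genes. The 4 were all of the Hoxd cluster and the 13 all of the Hoxb and Hoxc clusters. The median was -3.62, or -3.29 with genes at 0 counts set to their bound, but it was 0.09 at a minimum mean count of 100, which left 6 genes. With no filter, 28 Hox genes had 12 above 0 and 16 below, with a median of -1.18. Of the 20 measured, 7 had 0 counts in 1 library and passed the minimum through the other. The summed level of the Hoxd cluster was 37.6 CPM in DPCs and 3.93 CPM in DSCs, and it was 29.5 and 2.82 CPM at passage 3. Both DPC libraries were thus above both DSC libraries. Hoxd9 had 382 counts in DPCs and 31 in DSCs (3.87, 3.44 to 4.55), Hoxd8 541 and 100 (2.75, 2.47 to 3.10) and Hoxd4 170 and 8 (4.40).

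The Hoxb and Hoxc clusters were mostly in the high-passage DSC library. The Hoxb cluster summed to 27.1 CPM in DSCs and 0.585 CPM in DPCs at passage 9, but to 0.686 and 0 CPM at passage 3. Hoxb8 had 196 counts in high-passage DSCs, 0 in high-passage DPCs and 4 and 0 counts at passage 3, in DSCs and DPCs. Hoxb9 had 372 counts against 15 (-4.13, -5.14 to -3.55). The Hoxc cluster summed to 20.6 CPM in DSCs and 2.48 CPM in DPCs, and to 4.67 and 0.163 CPM at passage 3. High-passage DSCs stood apart from the low-passage DSC library at both clusters, and whether they came from the same culture was not stated. The Hoxa cluster summed to 1.93 CPM in DSCs and 1.59 CPM in DPCs.

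**Figure D4:**
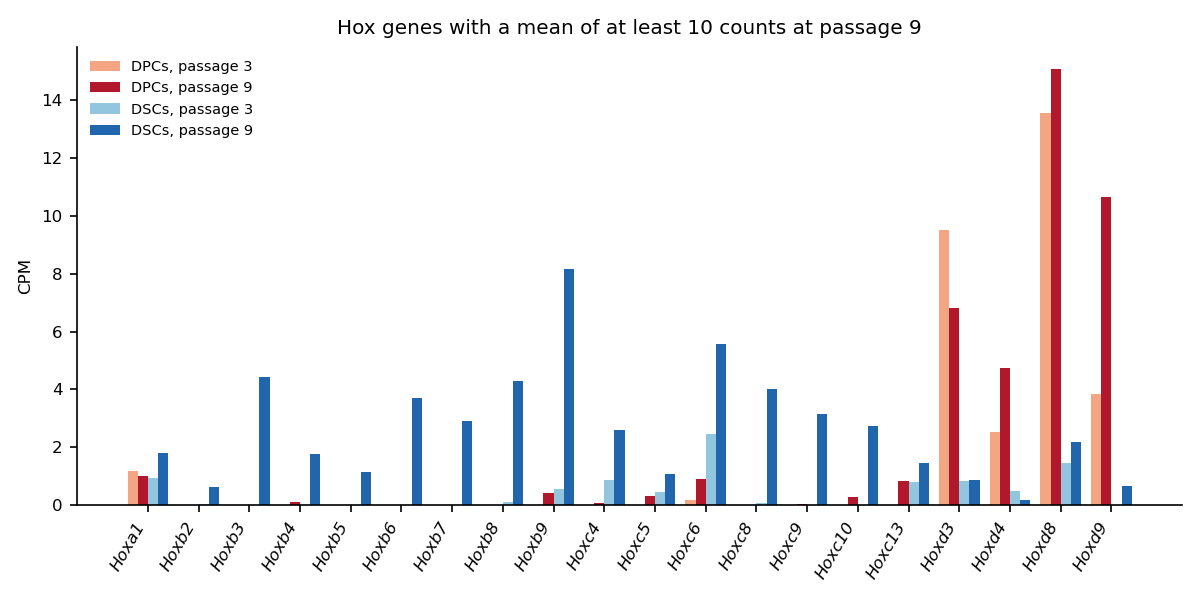
Level in CPM of the 20 measured Hox genes in the 4 libraries, ordered by cluster. Hoxd bars are high in DPCs at both passages (red and orange), and Hoxb and Hoxc bars are high in high-passage DSCs (dark blue) with low-passage DSCs (light blue) near 0 for most.

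Since Hox genes of a cluster differed as blocks, the sequence before the start is shown for Hoxb and Hoxd genes. The windows are the 250 bases before the RefSeq start, from the table of build GRCm38.p6, for the genes 4-fold apart whose window lay outside the annotated gene. Other genes, among them Hoxb3, Hoxb9, Hoxd4 and Hoxd9, were farther apart than some of those shown but had no such window in the table. This left Hoxb8 (chr11:96281655-96281904, plus strand), Hoxb4 (chr11:96318017-96318266, plus strand) and Hoxd8 (chr2:74704365-74704614, plus strand). Capitals mark TATAAA, the TATA box core, or CTTTGA, the core bound by Tcf/Lef factors, on either strand.
Hoxb8: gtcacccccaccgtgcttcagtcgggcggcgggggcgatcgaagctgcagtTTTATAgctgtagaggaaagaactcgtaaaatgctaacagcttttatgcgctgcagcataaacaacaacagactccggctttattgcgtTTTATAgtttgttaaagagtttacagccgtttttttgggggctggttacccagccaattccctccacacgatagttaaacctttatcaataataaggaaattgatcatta
Hoxb4: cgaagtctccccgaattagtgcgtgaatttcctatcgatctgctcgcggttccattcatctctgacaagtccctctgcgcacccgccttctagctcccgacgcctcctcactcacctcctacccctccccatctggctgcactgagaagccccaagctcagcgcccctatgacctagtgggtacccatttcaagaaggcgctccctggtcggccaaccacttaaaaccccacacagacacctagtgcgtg
Hoxd8: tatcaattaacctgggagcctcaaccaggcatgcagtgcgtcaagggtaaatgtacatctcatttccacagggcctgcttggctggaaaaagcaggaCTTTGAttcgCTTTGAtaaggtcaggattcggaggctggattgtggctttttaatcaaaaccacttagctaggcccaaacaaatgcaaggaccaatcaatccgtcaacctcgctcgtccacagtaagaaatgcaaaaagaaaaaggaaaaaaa
The Hoxb8 window held 2 matches of TATAAA, both on the other strand as TTTATA, and none of CTTTGA. The Hoxd8 window held 2 of CTTTGA and none of TATAAA, and Hoxb4 held neither. Of all 32817 promoter windows of this length, 12.4% held TATAAA and 13.8% CTTTGA on either strand. CpG dinucleotides numbered 12 in Hoxb8, 14 in Hoxb4 and 6 in Hoxd8. A match describes the letters and is not a binding site.

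Of 126 measured other developmental transcription factors, 12 were DPC-higher and 9 DSC-higher, against 2.8% and 3.84% of all genes, and the median was 0.0048. Pax1, a paired box factor of the axial skeleton, had 271 counts in DPCs and 9 in DSCs (4.93, 4.31 to 6.40). Nkx6-1 was at 24.1 and 1.65 CPM (3.83, 3.53 to 4.23) and Tfap2a, a neural crest and skin factor, at 40.1 and 4.65 CPM (3.09, 2.90 to 3.32). Tfap2a at passage 3 was at 23.9 and 6.28 CPM. On the DSC side, besides Lhx8, Eya2 had 329 counts against 8 (-4.73, -6.24 to -4.02), the homeobox factor Dlx5 182 against 8 (-3.88, -5.40 to -3.15) and Foxd1 was at 64.5 against 12.9 CPM (-2.32, -2.47 to -2.18). Scx, the tendon factor scleraxis, was at 44.1 CPM in DSCs and 8.89 CPM in DPCs (-2.30, -2.49 to -2.14), and at 48.3 and 5.19 CPM at passage 3. Comp, a matrix protein of cartilage and tendon, was at 101 and 3.23 CPM (-4.95, -5.25 to -4.70), and at 80.7 and 1.79 CPM at passage 3.

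Of 31 measured collagens, 10 were at least 4-fold higher in DSCs and 1 in DPCs, against 3.84% and 2.8% of all genes. The median was -1.16, against -0.44 at passage 3. Besides Col8a2, Col10a1 and Col1a1, the fibril-associated chain Col14a1 had 53 counts against 0 (at least 13.9-fold) and Col28a1 220 against 6 (-4.48, -6.31 to -3.71). Col27a1, a fibrillar collagen, was the exception, at 197 CPM in DPCs and 27.2 CPM in DSCs (2.85, 2.77 to 2.94). It was 4-fold higher in DPCs at passage 3 too (2.24). Of 35 matrix proteases and their inhibitors, 3 were higher in DPCs and 4 in DSCs, against 2.8% and 3.84% of all genes. Mmp3, stromelysin, was at 174 and 39.3 CPM (2.14, 2.07 to 2.22), Adamts3 at 7.22 and 0.878 CPM (2.97, 2.56 to 3.56), and Mmp1b had 31 and 2 counts. Adamts3 lay the other way at passage 3, with 0 counts in DPCs and 26 in DSCs. Mmp23 was at 94.1 CPM in DSCs and 6.69 CPM in DPCs (-3.80, -4.01 to -3.63), and Mmp13, a collagenase, had 420 and 26 counts.

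Of 23 measured integrin rows, 7 were DSC-higher and none DPC-higher, against 3.84% and 2.8% of all genes. Of the 7, 3 had 0 counts in DPCs, the second Itgam row and the leukocyte integrins Itgax (51 counts in DSCs) and Itgb7 (26 counts). Itga2, a collagen receptor subunit, was at 31.2 CPM in DSCs and 0.780 CPM in DPCs (-5.23, -5.92 to -4.78), and at 51.9 and 3.10 CPM at passage 3. Itga11, also a collagen receptor subunit, was at 1553 and 251.9 CPM (-2.62, -2.66 to -2.59). Among 63 cadherins and protocadherins, 10 were higher in DPCs and 9 in DSCs, against 2.8% and 3.84% of all genes. However, clustered protocadherins share exons and their counts are uncertain. Cdh13, a cadherin outside those clusters, was at 851.5 CPM in DPCs and 116 CPM in DSCs (2.87, 2.83 to 2.91), and Cdh4 had 0 and 180 counts.

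Axon guidance genes, which also steer other cells, had 3 of 60 higher in DPCs and 7 in DSCs, against 2.8% and 3.84% of all genes (median -0.025, of the other sign under scaling by total counts, at 0.074). Besides Sema5b, DPCs were higher at Ntng1 (248 against 17 counts, 4.04, 3.503 to 5.01) and at Slit2, a secreted ligand of Robo receptors (313 against 47.6 CPM, 2.71, 2.65 to 2.78). The Slit receptor gene Robo2 had 201 counts in DSCs and 10 in DPCs. Sema3a, a secreted repellent, was at 102 CPM in DSCs and 7.97 CPM in DPCs (-3.68, -3.86 to -3.51), and Epha1, an ephrin receptor, at 54.0 and 4.46 CPM (-3.58, -3.84 to -3.37). Epha1 overlaps Zyx.

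No proliferation gene listed was 4-fold apart. All 24 G2/M genes were below 0 with a median of -1.11, and 19 of 22 S phase genes were below 0 with a median of -0.51. Under scaling by total counts 23 of the 24 G2/M genes were below 0. Top2a, a topoisomerase of dividing cells, was at 40.1 CPM in DPCs and 58.8 CPM in DSCs (-0.55), and Ccnb1, cyclin B1, at 5.18 and 13.3 CPM (-1.35). At passage 3, 23 of the 24 G2/M genes were above 0, with a median of 0.27. Of 19 senescence and secreted factor genes, 4 were higher in DPCs (Igfbp3, Ccl2, Ccl7 and Mmp3) and 3 in DSCs (Il6, Mmp13 and Gdf15). The shares of all genes were 2.8% and 3.84%. The cell cycle inhibitors Cdkn1a (-0.38), Cdkn2a (-0.72) and Cdkn2b (-0.51) were below 4-fold. Il6, interleukin-6, had 129 counts in DSCs and 0 in DPCs, at least 33.9-fold, while the passage 3 libraries had 53 and 51.

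Of 16 measured chemokine ligands, 4 were higher in DPCs and 2 in DSCs, against 2.8% and 3.84% of all genes. Ccl2, which attracts monocytes, was at 408 CPM in DPCs and 59.4 CPM in DSCs (2.78, 2.72 to 2.84), and its relative Ccl7 at 121 and 28.8 CPM (2.06, 1.97 to 2.15). Both were 4-fold higher in DPCs at passage 3 too, at 2.17 and 2.21. Cxcl12, a stromal ligand, was at 230 CPM in DSCs and 44.0 CPM in DPCs (-2.38, -2.46 to -2.31), and differed by -2.10 at passage 3. Of 8 receptors, Cxcr6 was higher in DPCs, with 41 counts against 11 (2.03, 1.26 to 3.35).

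The passage 3 libraries, which share none with the comparison above, gave a second measurement of the cell type difference. Of all 16989 genes, 1.65% passed the 4-fold rule towards DPCs and 2.87% towards DSCs at passage 3, together 4.52%. Of the 475 genes higher in DPCs at passage 9, 87 (18.3%) were 4-fold higher in DPCs at passage 3 as well, and of the 653 higher in DSCs, 168 (25.7%). A further 188 and 302 had the same sign below 4-fold. Opposite signs below 4-fold were found for 111 and 116, and opposite 4-fold differences for 27 and 19. In 62 and 48 genes neither passage 3 library exceeded 3 counts. The correlation of the differences across all genes was 0.256 by Pearson's r and 0.139 by Spearman's rho, which is a description across genes that share libraries. Sox2, Gpc3, Hoxd9, Col27a1, Frzb and Dll1 were 4-fold higher in DPCs at both passages, and Thbs4, Fmod, Chrdl1, Comp, Col8a2, Itga2 and Scx in DSCs.

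Several of the named genes overlap another annotated gene, and without the strand their counts may include its reads. Besides those given above, these included L1cam, which shares exons with Arhgap4 on the same strand, Hoxd4, Sfrp2, Bmp4, Enpp2, Lef1, Ncam1, Mylk, Fn1, Vcam1, Cd34, Dsp, Pax1, Tfap2a, Dll1, Gli1, Axin2, Mmp1b and Wnt5a. Among all genes, 9.06% shared exons with a gene on the same strand, against 13.3% of the DPC-higher and 10.4% of the DSC-higher genes.

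In the median over the 475 DPC-higher genes, high-passage DPCs were at 3.46 CPM and the other libraries at 0.571 (low-passage DPCs), 0.369 (low-passage DSCs) and 0.373 CPM (high-passage DSCs). Over the 653 DSC-higher genes the median was 3.14 CPM in high-passage DSCs, 2.22 in low-passage DSCs, 1.06 in low-passage DPCs and 0.279 CPM in high-passage DPCs. The passage 9 levels follow from the call, and those at passage 3 do not. At passage 3 the median of each set was higher in the cell type in which the set was higher at passage 9.

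**Figure D5:**
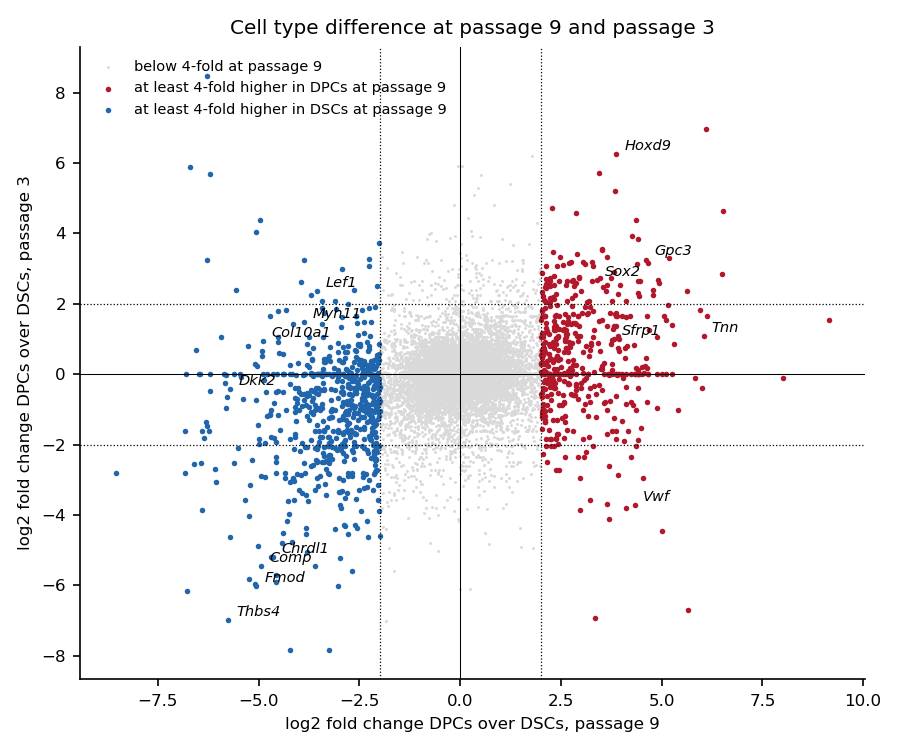
Log2 fold change of DPCs over DSCs for each measured gene at passage 9 (horizontal axis) and at passage 3 (vertical axis), with dotted lines at 4-fold. Red and blue points are the genes called at passage 9. Thbs4, Fmod, Chrdl1 and Comp lie low on the left at both passages, Hoxd9 and Gpc3 high on the right, and Lef1, Myh11, Col10a1 and Vwf lie in the quadrants of opposite sign.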

How the data were processed

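RNA of cultured vibrissa DPCs and DSCs at passages 3 and 9 was sequenced, 1 library a group. Per the study's methods, mRNA was captured on poly-T beads, prepared with an NEBNext kit and sequenced paired-end, while the labels name a TruSeq kit. The authors deposited raw read counts per gene for all libraries, which were not normalized. The deposited FPKM values, 1 table a library, are the authors' own scaling of fragments by gene length and sequencing depth. The submitters' processing notes name Bowtie 0.12.2, mm8 and mm9, with no role given. The positions in the table match GENCODE M21 on GRCm38, where 51633 of 51826 IDs were found and 94.1% of these had an identical position. The counting program and its use of strand are not given in the sources used here. Genes with 2 counts outnumbered those with 3 (1541 against 607 in high-passage DPCs), so both mates of a pair may have been counted. In that case the floor is 6 counts and the lower bounds on folds halve.

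Counts were scaled by TMM over the 4 libraries (edgeR 4.0.16, limma 3.58.1 and R 4.3.3) and analysed in Python 3.11.15 (pandas 2.3.3, numpy 2.4.6, scipy 1.17.1, matplotlib 3.10.9). Genes with a mean count of at least 10 over the passage 9 libraries were kept, a prior count of 2 was used, and a gene was called at an absolute log2 fold change of 2. Exact Clopper-Pearson 95% intervals were taken from the share of a library in the counts of 2 libraries, scaled by effective library size. With 1 to 3 counts in a library, the raw ratio is given with its interval, and with 0 a lower bound against 3 counts. The intervals were tested on simulated Poisson counts, which hold no duplicate or doubly counted reads. PCR reads without molecular identifiers are not independent molecules, so intervals and floors cover counting error only.

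The members and the 35 gene lists were chosen with earlier results of these data known. Genes named are, of protein-coding genes whose call held at the near end of the interval, the 12 farthest apart in each direction and the 6 with at least 100 CPM, then up to 4 called members a list, the markers the study examined, the genes nearest the threshold and the 3 largest opposite differences. Further list members with their values were named after the values were seen, as were the Hox windows and their motifs. Alternatives were other scalings (total counts, DESeq2 1.42.0 size factors, upper quartile, the passage 9 pair alone), filters, prior counts, halved counts, FPKM and protein-coding genes only.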

Additional observations from a re-analysis of the deposited data

Results flagged for a closer look

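The items below are genes named by the rule above and at least 4-fold apart at passage 9. Their difference between DPCs and DSCs lay on opposite sides of 0 at passage 9 and passage 3. The counting interval at each passage left out 0. Genes named later that also met these conditions included Sfrp2 and Adamts3. Axin2, Acta2, Jag1, Ly6a and Cd44 changed side too, with such intervals, but were below 4-fold at passage 9 and are not listed. With 1 library a group, the change in the difference between passages was not tested. In all, 46 genes were at least 4-fold apart in opposite directions at the passages, 27 of them higher in DPCs and 19 higher in DSCs at passage 9. Values are the log2 fold change of DPCs over DSCs at passage 9 minus that at passage 3.

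Among contractile and matrix genes, the difference moved towards DSCs by -5.35 for Myh11, -3.61 for Mylk, -5.84 for Col10a1, -4.10 for Dcn and -7.97 for Lum. Lum had 0 counts in high-passage DPCs and in low-passage DSCs, so its value is set in part by the prior count. Dcn was at 116 CPM in low-passage and 153 CPM in high-passage DPCs, and at 86.8 and 1965 CPM in DSCs, so that high-passage DSCs were the library apart. For Myh11, high-passage DPCs were the lowest library, at 4.68 CPM.

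Among signalling and adhesion genes the difference moved by -5.91 for Lef1, -3.69 for Bmp2, -4.08 for Sema3a, -2.36 for Vcam1, -9.53 for Cdh4 and -6.32 for Itgax, a leukocyte integrin. Towards DPCs it moved by 8.05 for Vwf, 4.22 for Erg, 3.11 for Cxcr6 and 4.29 for Krt222, a keratin-like gene with at most 41 counts in a library. The prior count sets part of the values of Cdh4, Itgax and Krt222. Cdh4 had 0 counts in high-passage DPCs and low-passage DSCs, Itgax in high-passage DPCs and Krt222 in low-passage DPCs.

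Further rows of this kind were Gm45736 (-14.77), Gm6977 (-12.59), SETD1A (12.36, as spelled in the table) and Pcdhgb8 (-9.10). Gm45736 had 0 counts in low-passage DSCs, and Gm6977 had 0 there and in high-passage DPCs, so the prior count sets part of their values. SETD1A had 4 and 367 counts in DPCs and 632 and 7 in DSCs at passages 3 and 9, and it shares its place with other gene rows, as does Pcdhgb8, so the counts of both are uncertain.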

How the results depend on the processing

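The number of genes at least 4-fold higher in DPCs (475) was 834 with no filter, 208 at a mean count of at least 100, 301 with a prior count of 10 and 106 on FPKM with a pseudocount of 1. The number higher in DSCs (653) was 289, 420 and 105 under the last 3 of these, and 409 on FPKM with a pseudocount of 0.1. The 4-fold genes in the same direction at passage 3 (255 in all) numbered 123 at a mean count of at least 100, 138 with a prior count of 10, and 133 and 32 on FPKM with pseudocounts of 0.1 and 1. Spearman's rho was 0.925 at a mean count of at least 100. A higher prior count or pseudocount shrinks the fold of low genes by construction, and the stricter filter leaves fewer genes. DPC-higher genes were 42.1% of the calls, and between 38.6% and 50.2% over the alternatives. Over 1342 recomputed values of named genes none turned direction and 253 moved beyond the main counting interval. Of 840 recomputed counts of called list members, 90 moved by more than 1.5-fold or to or from 0. Of 420 recomputed list medians, 93 moved, with a log2 tolerance of 0.1, and 10 took the other sign. Those 10 were in the axon guidance, endothelial, sex chromosome, developmental transcription factor, chemokine ligand and receptor, Wnt receptor and Hox lists. Of 110 named genes at least 4-fold apart, all 110 intervals left out 0, also with halved counts. This follows largely from the naming rule, since most were named only where the near end stayed on the side of the call. No paired analysis was possible because each group was 1 library and no test was run, and for the same reason no library could be left out. Depth limits genes near 3 counts, and with 1 library a side the spread between cultures is unknown.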

Other observations

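Of 32 measured potassium channel genes, which set the membrane potential, 3 were DPC-higher by the 4-fold rule at passage 9 and 4 DSC-higher, against 2.8% and 3.84% of all genes. Kcng2 and Kcnt2 overlap another annotated gene. Kcnh1 had 475 counts in DPCs and 27 in DSCs (log2 fold change 4.37, 95% counting interval 3.92 to 5.10), with 10 and 9 counts at passage 3. Kcnj2, an inward rectifier, had 601 and 79 counts (3.23, 2.93 to 3.63), and Kcng2 24 and 2. In DSCs, Kcnt2 had 286 counts against 6 in DPCs (-4.86, -6.69 to -4.09) and Kcns3 86 against 3, and Kcnn4 (-2.87) and Kcna3 (-2.30) were also higher.

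Of 20 measured interferon response genes, 1 was at least 4-fold higher in DSCs, Oas2 with 55 counts against 2, against 3.84% of all genes. At passage 9, 16 of the 20 were below 0 (14 under scaling by total counts and 13 on the FPKM scale), with a median of -0.88. At passage 3, 19 of the 20 were below 0 with a median of -1.40. Of 5 adipocyte genes, Lpl, lipoprotein lipase, was 4-fold higher in DSCs, at 49.1 against 11.7 CPM (-2.06, -2.22 to -1.92), and Adipoq and Plin1 were at 0 in both. The call of Lpl was marginal, as it fell just below 4-fold under scaling by total counts. The skeletal muscle list had Acta1 with 1083 counts in DSCs and 13 in DPCs (-5.85, -6.95 to -5.26), while Myod1 and Ckm were at 0 in both passage 9 libraries and the passage 3 libraries held 1837 and 1495 counts of Acta1. Of 7 bone and cartilage genes, Comp alone was 4-fold apart. Of 5 keratins, Krt222 was higher in DPCs with 41 counts against 9. Of 3 measured Schwann genes and 2 melanocyte genes, none was 4-fold apart. The Y-linked genes Ddx3y (-0.61), Eif2s3y (-0.31), Kdm5d (0.11) and Uty (0.38) were present in both libraries, each with at least 1221 counts, and Xist had 12 counts in DPCs and 2 in DSCs.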
